A study of Mus musculus with 6 samples.

Results

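The acyl-CoA thioesterases of the Acot family were examined in regenerating mouse liver. Members were the probe sets that the array's platform annotation assigns to a single gene, that gene being Acot1, Acot2, Acot3, Acot4, Acot7, Acot8, Acot9, Acot12 or Acot13. These were 10 of the 45141 probe sets in the table, covering 8 of the 9 genes and 8 of the 17097 genes with a probe set of their own. Acot2 and Acot12 had 2 probe sets each, and Acot4 had none, because both of its probe sets are also annotated to Acot3. The family was selected on the low DeltaKlf6 values of Acot1 and Acot3 in the same comparison, so its differences between the groups are descriptions and are not tested. Arrays were run on liver RNA from 3 mice labelled DeltaKlf6, in which Klf6 is deleted in hepatocytes, and from 3 wildtype mice. Both groups carry the strain label C57Bl/6, and every animal had 70% of the liver removed (partial hepatectomy, abbreviated PHx) 12 h before the remnant liver was taken. The whole study used 6 animals per group; ages, the Cre driver of the deletion and any unoperated liver are not part of the labels used here. Whole remnant liver was measured, so fewer cells of a type and less RNA per cell cannot be told apart.

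Acyl-CoA thioesterases split fatty acyl-CoA esters into the free fatty acid and coenzyme A, the reverse of the step run by acyl-CoA synthetases. Type I members (Acot1 in the cytosol, Acot2 in mitochondria, Acot3 and Acot4 in peroxisomes) share an alpha/beta-hydrolase fold and stand in a gene cluster in the mouse. Type II members (Acot7, Acot8, Acot9, Acot12 and Acot13) share the unrelated hotdog fold. In mouse liver the type I genes are induced by fasting and by ligands of the nuclear receptor PPARA, which binds repeats of the sequence AGGTCA as a dimer with RXR.

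The promoters of Acot1, Acot2 and Acot3, the 3 type I members with values, are shown. These genes stand in the same cluster and were each lower by group mean in DeltaKlf6. Acot5 and Acot6 of that cluster, which are not members here, had log2 differences of 0.07 and 0.06. Their levels lay under the array medians, where a lower level has little room to show. In RefSeq (GRCm38.p6) the protein-coding genes Acot2, Acot1, Acot4, Acot3, Acot5 and Acot6 follow each other on chromosome 12 with no other protein-coding gene between them. Each sequence is the 250 bases before the annotated start, plus strand, at chr12:84009252-84009501 for Acot1, chr12:84051894-84052143 for Acot3 and chr12:83987611-83987860 for Acot2. Capitals mark matches to CCAAT and GGGCGG on either strand.
Acot1: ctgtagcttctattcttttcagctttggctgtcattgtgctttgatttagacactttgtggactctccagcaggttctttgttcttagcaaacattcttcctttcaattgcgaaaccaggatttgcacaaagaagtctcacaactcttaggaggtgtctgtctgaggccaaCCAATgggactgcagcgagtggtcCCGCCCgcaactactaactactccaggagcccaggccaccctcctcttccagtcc
Acot3: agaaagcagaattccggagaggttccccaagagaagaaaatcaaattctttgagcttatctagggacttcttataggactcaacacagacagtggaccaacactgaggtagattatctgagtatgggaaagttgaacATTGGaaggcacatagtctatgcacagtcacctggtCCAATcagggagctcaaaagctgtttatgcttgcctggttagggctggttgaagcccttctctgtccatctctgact
Acot2: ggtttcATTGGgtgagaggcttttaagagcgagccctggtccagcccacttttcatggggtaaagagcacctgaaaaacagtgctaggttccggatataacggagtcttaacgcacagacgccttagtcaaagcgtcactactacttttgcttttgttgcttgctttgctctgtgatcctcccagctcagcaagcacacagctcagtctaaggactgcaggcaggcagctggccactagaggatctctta
Windows were found for 8 of the 9 genes (RefSeq, GRCm38.p6), not for Acot13. CCAAT, the CCAAT box, was searched on both strands and occurred in the windows of Acot1, Acot2, Acot3, Acot4, Acot8 and Acot9, 6 of 8 genes, against 33.8% of all 32851 promoter windows. In Acot1 it lay 79 to 75 bases before the start and in Acot2, on the reverse strand, 244 to 240. In Acot3 it lay 77 to 73 and, on the reverse strand, 113 to 109 bases before the start shown, which is 84 to 80 and 120 to 116 before a second annotated start. GGGCGG, the GC box that factors of the KLF family can bind, occurred in 5 of 8 (Acot1, Acot7, Acot8, Acot9 and Acot12), against 32.7% of all windows. The half-site AGGTCA occurred in 2 of 8 (Acot4 and Acot12), against 14.0%. The direct repeat AGGTCANAGGTCA, which contains the half-site, occurred in 0 of 8, against 0.0335%. A missing match says only that these letters are not in this window.

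Klf6 was not uniformly low in the libraries labelled DeltaKlf6, and its group mean was higher there on each of its 3 probe sets (log2 differences 0.13, 0.52 and 0.02, SE 0.74, 0.52 and 0.84). The 3 Klf6 probe sets lay 2.13, 1.82 and 2.12 above the wildtype mean (log2 scale) in the library labelled DeltaKlf6 1. In DeltaKlf6 2 they lay at -0.87, 0.05 and -0.30, and in DeltaKlf6 3 at -0.86, -0.32 and -1.75. On 2 of the 3 probe sets DeltaKlf6 2 lay inside the wildtype range, as did DeltaKlf6 3 on 1. Every direction below is therefore between libraries as labelled. Whether these probe sets lie in the deleted part is not known here. Hepatocyte identity was plain: Alb, serum albumin, was at 12.52 to 13.33 in DeltaKlf6 and at 12.72 to 13.02 in wildtype, near the top of the log2 scale. The library labelled DeltaKlf6 3 stood apart, with an upper quartile of 5.08 against 5.50 to 5.63 in the other 5 arrays. The mean of its hybridization control probe sets was 11.22, against 9.86 to 10.34 in the other 5. The 3'-minus-5' signal of Gapdh, a measure of RNA quality, was 3.47, 3.45 and 4.83 in DeltaKlf6 1, 2 and 3, outside the wildtype span of 4.06 to 4.43. That of actin was 4.223 and 3.998 in DeltaKlf6 1 and 2, below the wildtype span of 4.86 to 5.39, and 5.05 in DeltaKlf6 3, inside it.

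Acot3 and Acot1 had the largest differences between the group means among the 10 thioesterase probe sets. The Acot3 probe set (1422925_PM_s_at, a type that can match several transcripts) was at 5.46, 5.43 and 5.36 in DeltaKlf6, against 7.45, 9.09 and 7.23 in wildtype (log2 expression). The DeltaKlf6 libraries were nearly level with each other, while wildtype 2 was far above the other wildtype arrays, and the groups were separated by 1.77. Means were 5.42 ± 0.05 in DeltaKlf6 and 7.93 ± 1.02 in wildtype (SD, n = 3 each), a log2 difference of -2.51 (SE 0.45). On the linear scale that is 0.176 of the wildtype level. Since the probe set is of the shared type and Acot3 has close relatives beside it, its signal may not come from Acot3 alone.

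Acot1 (1449065_PM_at) was at 5.89, 6.41 and 7.10 in DeltaKlf6, against 7.82, 8.91 and 8.42 in wildtype. The groups did not overlap, with 0.71 between them, and the DeltaKlf6 libraries spanned 1.22, about as much as the wildtype span of 1.09. Means were 6.47 ± 0.61 in DeltaKlf6 and 8.38 ± 0.55 in wildtype (SD, n = 3 each), a log2 difference of -1.91 (SE 0.38), or 0.266 of the wildtype level. DeltaKlf6 1, the library with high Klf6, had the lowest Acot1 value of the 6 arrays. Without it the difference was -1.62 (SE 0.38) for Acot1 and -2.53 (SE 0.53) for Acot3.

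Acot2, the mitochondrial type I enzyme, differed less and depended on the probe set. Its shared-type probe set (1422997_PM_s_at) was at 5.28, 5.21 and 5.03 in DeltaKlf6, against 5.65, 6.40 and 6.11 in wildtype, a log2 difference of -0.88 (SE 0.24) between groups that did not overlap. The other one (1422996_PM_at) was at 2.94, 3.11 and 3.50 in DeltaKlf6, against 3.31, 3.65 and 3.45 in wildtype, with overlapping groups and a difference of -0.29 (SE 0.22). Its values lay close to the array medians of 3.30 to 3.45, and detection was not assessed, so a difference has little room to show there.

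**Figure D1:**
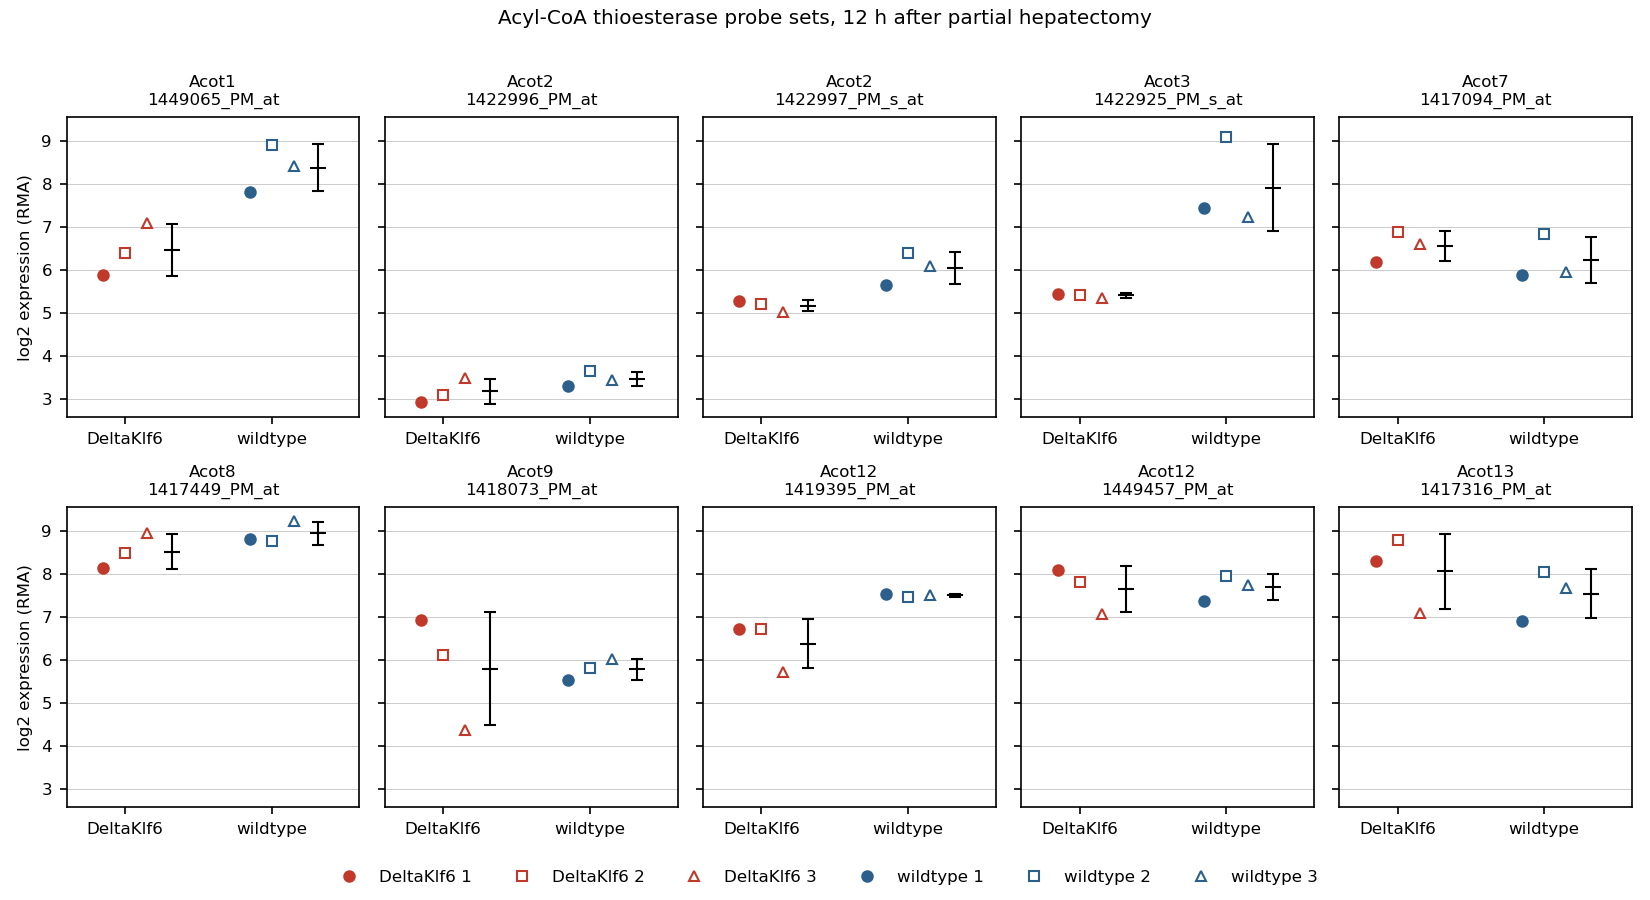
Log2 expression (RMA) of the 10 thioesterase probe sets in each array, with DeltaKlf6 left of wildtype; symbols mark the replicate number and black bars the mean ± SD (n = 3). Groups are separate for Acot1, Acot3, the shared-type Acot2 probe set and 1 of the Acot12 probe sets, and Acot3 in DeltaKlf6 lies within 5.36 to 5.46.

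Among the type II enzymes, Acot12, a cytosolic acetyl-CoA hydrolase of liver, differed between its 2 probe sets, which the annotation ties to the same transcript accession. The first (1419395_PM_at) was at 6.72, 6.73 and 5.72 in DeltaKlf6, against 7.54, 7.48 and 7.51 in wildtype. The wildtype arrays lay within 0.05 of each other and the groups did not overlap, with a log2 difference of -1.12 (SE 0.30). The other (1449457_PM_at) was at 8.11, 7.81 and 7.07 in DeltaKlf6, against 7.39, 7.97 and 7.76 in wildtype, a difference of -0.04 (SE 0.31) between overlapping groups. In both, the library labelled DeltaKlf6 3 was the lowest of the 6 arrays; its 3'-minus-5' signal was the largest of the 6 for Gapdh but inside the wildtype span for actin. Where the 2 probe sets lie along the transcript is not known here, and the part of RNA quality in their disagreement was not tested.

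Acot8, a peroxisomal thioesterase of broad substrate range, was at 8.15, 8.49 and 8.95 in DeltaKlf6, against 8.83, 8.77 and 9.25 in wildtype. DeltaKlf6 1 and 2 were below the wildtype arrays and DeltaKlf6 3 was among them (log2 difference -0.42, SE 0.26). Acot7, a cytosolic enzyme best known from brain, was at 6.20, 6.90 and 6.62 in DeltaKlf6, against 5.90, 6.85 and 5.95 in wildtype, with overlapping groups (0.34, SE 0.32).

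Acot9 and Acot13, thioesterases found at mitochondria, varied more among the DeltaKlf6 libraries than between the groups. Acot9 was at 6.93, 6.12 and 4.37 in DeltaKlf6, against 5.54, 5.82 and 6.02 in wildtype, so that the DeltaKlf6 libraries spanned 2.55 around a group difference of 0.02 (SE 0.57). Acot13 was at 8.31, 8.80 and 7.09 in DeltaKlf6, against 6.92, 8.05 and 7.68 in wildtype (0.51, SE 0.47). In both genes DeltaKlf6 1 and 2 lay above the wildtype arrays and DeltaKlf6 3 did not. The Acot9 values ran beside those of Acot10, an intronless relative of Acot9 read by a shared-type probe set, at 6.81, 5.97 and 5.08 in DeltaKlf6, against 5.91, 6.07 and 6.00 in wildtype. Whether these signals can be told apart was not tested.

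**Figure D2:**
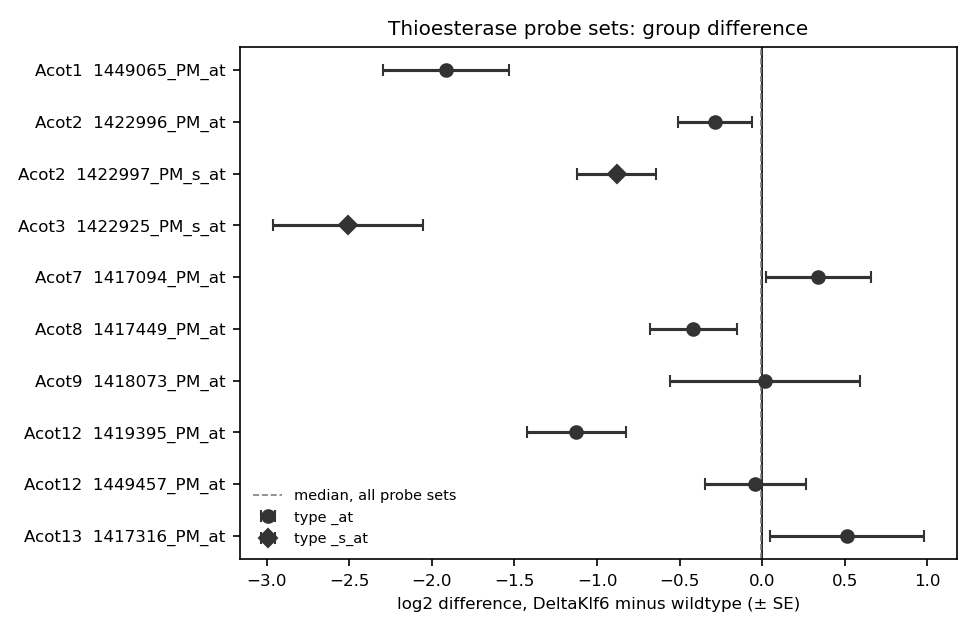
Log2 difference, DeltaKlf6 minus wildtype, of each thioesterase probe set; bars are the limma standard error (3 arrays per group), diamonds mark the shared (_s_at) type and the dashed line is the median of all probe sets, -0.01. Acot3 (-2.51), Acot1 (-1.91) and 1 of the Acot12 probe sets (-1.12) lie below -1, and the other Acot12 probe set lies near 0.

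Across the 10 probe sets, 7 were lower by group mean in DeltaKlf6, beside 51.2% of all probe sets, and 3 were higher, with a median log2 difference of -0.35, against -0.01 over all 45037 probe sets that were not controls. The groups did not overlap for 4 probe sets, each lower in DeltaKlf6 (Acot1, Acot3 and 1 each of Acot2 and Acot12), beside 5.58% of all probe sets not overlapping on the lower side. On the higher side 0 of 10 did not overlap, beside 3.86% of all. These counts include the genes for which the family was picked, so nothing is read from them. In the limma fit over all probe sets 0 were called lower (0%) and 0 higher (0%) at an adjusted p under 0.05, the thioesterases among those not called, with 1030 lower (2.29%) and 590 higher (1.31%) at an unadjusted p under 0.05. The smallest adjusted p by limma over the table was 0.996.

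Removing the library labelled DeltaKlf6 3 separated the groups for 4 further probe sets, those of Acot8, Acot9 and Acot13 and the Acot2 probe set 1422996_PM_at. The groups then did not overlap for 8 of the 10 probe sets, 6 lower and 2 higher, beside 12.7% and 11.4% of all probe sets. Acot13 was then 1.002 (SE 0.36) and Acot9 0.73 (SE 0.29) above wildtype on the log2 scale, while Acot8 differed by -0.63 (SE 0.24), this Acot2 probe set by -0.44 (SE 0.21) and the Acot12 probe set 1419395_PM_at by -0.79 (SE 0.19). Acot1 differed by -2.23 (SE 0.35) and Acot3 by -2.48 (SE 0.52). Without DeltaKlf6 1, the library with high Klf6, 4 of 10 did not overlap, each lower, beside 10.7% of all probe sets on that side and 7.73% on the higher side.

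Ppara, the receptor whose ligands induce the type I genes, was lower in the DeltaKlf6 libraries on each of its 3 probe sets, by log2 differences of -1.45, -1.28 and -1.61 (SE 0.30, 0.28 and 0.31). Its probe set with the highest mean was at 6.79, 7.60 and 7.93 in DeltaKlf6, against 9.27, 8.98 and 8.90 in wildtype. Among the DeltaKlf6 libraries it had the same order as Acot1, lowest in DeltaKlf6 1, but in wildtype the order differed, with Ppara highest in wildtype 1, where Acot1 was lowest. The other Ppara probe sets were also lowest in DeltaKlf6 1 but highest among these libraries in DeltaKlf6 2.

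**Figure D3:**
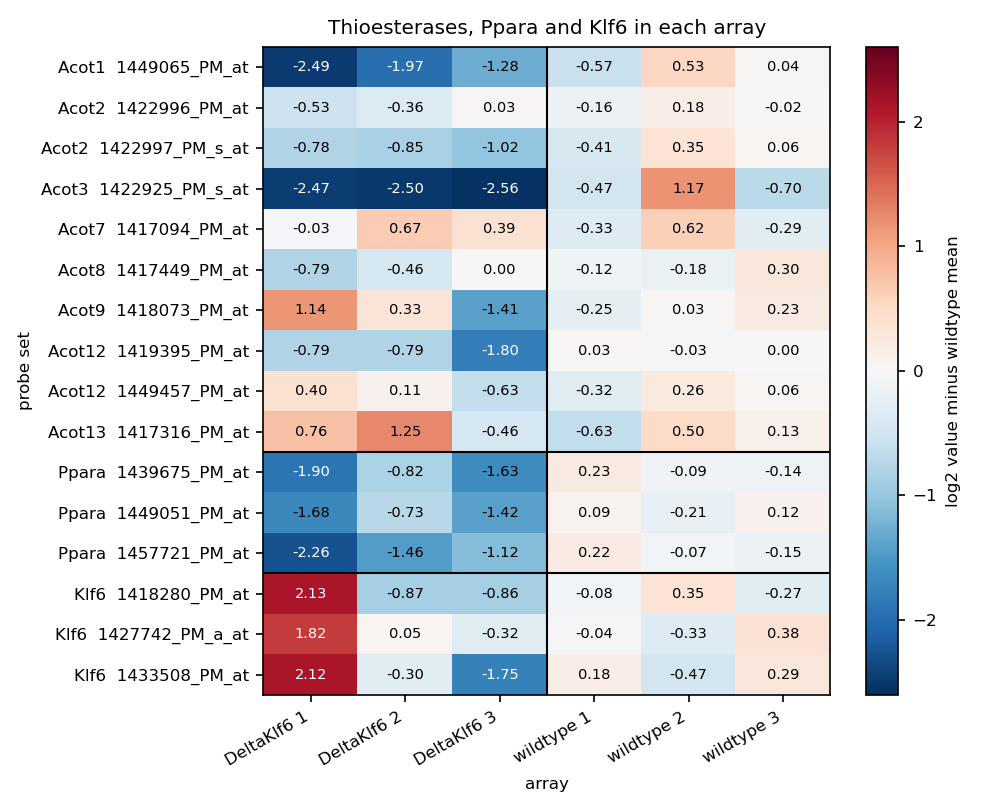
Log2 value minus the wildtype mean in each array (columns, DeltaKlf6 left of wildtype) for the 10 thioesterase probe sets, the 3 of Ppara and the 3 of Klf6; blue is below and red above the wildtype mean. Acot1, Acot3 and Ppara are below it in each DeltaKlf6 library, Acot9 runs between 1.14 and -1.41 there, and Klf6 is high in DeltaKlf6 1.

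Profiles were also compared by their root mean square log2 distance over the 6 arrays, each centred on its wildtype mean, among 15852 single-gene probe sets at or above the median level. Nearest to Acot1 were Mmd (0.38), Ppara (0.47), Ten1 (0.49), Cish, an inhibitor of cytokine signalling (0.50), and Abhd6, a lipase of monoacylglycerol (0.55). Mmd was at 5.63, 6.70 and 7.41 in DeltaKlf6, against 7.89, 8.61 and 7.82 in wildtype. Nearest to Acot3 were Serpina4-ps1 (0.69), Acot1 (0.69), Cish (0.84), N4bp2l1 (0.88) and Mmd (0.94). Acot1 was thus the second nearest profile to Acot3 in this search, and Acot3 was not among the 5 nearest to Acot1. The distances are descriptions, and they rest largely on the group difference by which Acot1 and Acot3 were picked.

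Other genes of acyl-CoA handling were read from 7 lists, 1 probe set a gene. Of 99 distinct genes measured 0 passed the limma test in either direction at an adjusted p under 0.05, as for the 17097 genes of the table (0%). Groups did not overlap for 12 of them, each lower in DeltaKlf6, beside 5.91% of the 17097 genes on that side, and for 0 on the higher side, beside 3.41%. The 12 include Ppara, Ehhadh and Cpt1a from the PPARA list, which was known to be lower in these data. Nothing is therefore read from this count.

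The list of PPARA and its inducible targets, whose lower level in DeltaKlf6 was known from earlier results of these data, had 15 of 16 measured genes lower, beside 51.6% of all genes, and a median log2 difference of -0.57, against -0.01 over all genes. It was led by Ppara (-1.61), Vnn1, a pantetheinase (-1.34), and Fgf21, a hepatic hormone (-1.22). The groups did not overlap for 4 of its 16 genes, each lower, beside 5.91% of all genes on that side. Ppara was among these 4, while Vnn1 and Fgf21 had overlapping groups. Since the list was known to be lower, nothing is read from this count. The other thioesterases had 10 of 16 lower, a median of -0.04 and no gene with separate groups. Them4 (-1.20), Fasn, the fatty acid synthase (0.51), and Them7 (0.38) differed most there. Acot5 and Acot6, which stand in the same cluster as Acot1 and Acot3, were at 2.09 to 2.90 and 2.47 to 3.09 in DeltaKlf6, against 2.25 to 2.67 and 2.63 to 2.92 in wildtype. These levels lie under the array medians, so a difference has little room to show.

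Peroxisomal beta-oxidation had 11 of 18 genes lower (median -0.11), with Crat, a carnitine acetyltransferase (-1.29), Ehhadh, the bifunctional enzyme (-1.03), and Pecr, a reductase (0.64). Ehhadh was at 8.73 to 9.46 in DeltaKlf6, against 9.87 to 10.50 in wildtype, without overlap. Groups did not overlap for 5 of the 18 genes, each lower, beside 5.91% of all genes on that side. Crat was among these 5, and the groups overlapped for Pecr. Mitochondrial beta-oxidation had 9 of 15 lower (median -0.10), with Echs1, a hydratase (0.85), Cpt1a, which admits fatty acids to mitochondria (-0.82), and Slc25a20, the acylcarnitine carrier (-0.59). Cpt1a was at 9.38, 9.05 and 8.64 in DeltaKlf6, against 9.98, 9.71 and 9.83 in wildtype, the only 1 of the 15 without overlap. Echs1 and Slc25a20 had overlapping groups. Ehhadh and Cpt1a are also in the PPARA list, which was known to be lower in these data, so nothing is read from these counts.

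The acyl-CoA synthetases, which run the opposite reaction, had 11 of 17 lower (median -0.09). Slc27a4, a fatty acid transport protein with synthetase activity (-0.71), Acsf2 (0.67) and Acsbg1 (-0.43) differed most. Genes of coenzyme A synthesis and breakdown had 11 of 16 lower (median -0.19), with Vnn1 as above, Slc25a42, a mitochondrial coenzyme A carrier (-0.78), and Ppcs, an enzyme of coenzyme A synthesis (-0.74). Acyl-CoA binding proteins had 6 of 8 lower (median -0.06), with Acbd4 (-0.58), Fabp2 (-0.18) and Dbi (-0.15).

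**Figure D4:**
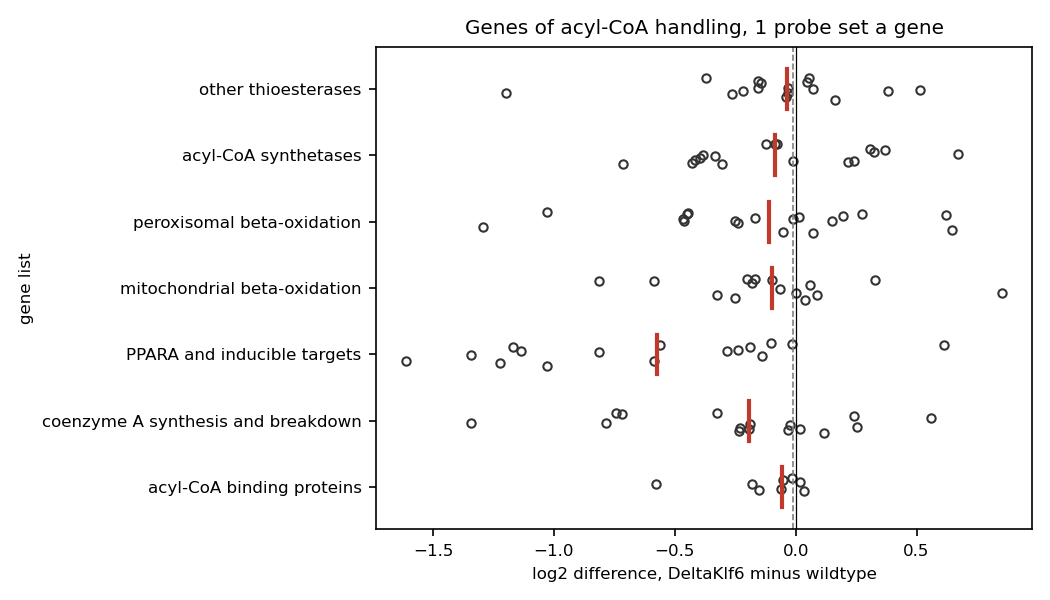
Log2 difference, DeltaKlf6 minus wildtype, of each measured gene (circles) in 7 lists of acyl-CoA handling; red bars are list medians and the dashed line is the median of all genes, -0.01. The PPARA list has its median at -0.57 and the other lists have theirs between -0.19 and -0.04.

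Markers of liver cell types were set beside these values. The mean of 12 hepatocyte markers lay 0.33, 0.46 and -0.18 from the wildtype mean in DeltaKlf6 1, 2 and 3, against -0.05 to 0.07 in wildtype. By group mean 8 of the 12 were higher and 4 lower, beside 51.6% of all genes lower. Hnf4a was lower without overlap, at 10.95, 10.98 and 10.93 in DeltaKlf6, against 11.18, 11.01 and 11.06 in wildtype. Tat was higher without overlap and lay 1.47 above its wildtype mean in DeltaKlf6 1. For 11 Kupffer cell markers the range of the list mean, relative to wildtype, was -0.03 to 0.75 in DeltaKlf6, against -0.17 to 0.14 in wildtype. For 9 sinusoidal endothelial markers it was -0.59 to 0.03, against -0.10 to 0.10, and for 9 stellate cell markers -0.36 to 0.38, against -0.15 to 0.17. Of 5 adipocyte markers 5 were lower by group mean, beside 51.6% of all genes (-0.86 to -0.02 in DeltaKlf6, against -0.13 to 0.14 in wildtype). The -0.86, in DeltaKlf6 2, rests largely on Plin4. Plin4 was at 8.22, 4.66 and 8.01 in DeltaKlf6, against 8.53, 6.16 and 7.89 in wildtype. Fabp4, a fatty acid binding protein of adipocytes, was at 9.93, 9.26 and 9.83 in DeltaKlf6, against 9.94, 10.34 and 10.15 in wildtype. Its groups did not overlap, but only 0.003 lay between them. Among all genes 5.91% did not overlap on the lower side and 3.41% on the higher side. Of the other markers Hnf4a, Kdr, Camp, Cd3d and Cd3g were also lower without overlap, and Tat and Mpeg1 were higher. Adipoq, which defines adipocytes, was at 2.32 to 2.51 in DeltaKlf6 and 2.06 to 3.02 in wildtype, under the array medians. Lep was also under them, at 2.12 to 2.52 in DeltaKlf6 and 2.30 to 2.62 in wildtype. Retn was at 3.48 to 3.55 in DeltaKlf6, close to the medians, and at 3.49 to 4.38 in wildtype. Cholangiocyte (4 of 5 higher), neutrophil (1 of 6), lymphocyte (3 of 8), erythroid (3 of 3) and pancreatic acinar markers (4 of 6) passed the test for 0 genes. The part of cell composition in the thioesterase differences was not tested.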

How the data were processed

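The submitters' processing notes name RMA and Affymetrix Expression Console 1.2.1 for the values the authors deposited, which are taken as log2 from their range. No genome build is stated in these sources. Of 45141 probe sets 104 were controls; 28898 had 1 gene in the platform annotation, 551 several and 15588 none here, and RefSeq changed 0 symbols. The remaining 45037 were fitted with limma 3.58.1 (R 4.3.3, statmod 1.5.0; lmFit and eBayes, genotype as factor, two-sided, Benjamini-Hochberg over all of them), after a test on simulated data. Lists used the probe set with the highest mean for each of 17097 genes. Each array is 1 animal, and their number limits the precision. The named genes are the members, Klf6, Ppara, the 3 genes per list with the largest absolute difference and the 5 profiles nearest to Acot1 and to Acot3; placeholder symbols were skipped. Alb, Acot5, Acot6, Acot10, Ehhadh's and Cpt1a's per-array values and the genes of the last section were chosen after values were seen. So were the named markers Adipoq, Fabp4, Plin4, Lep, Retn, Hnf4a, Tat, Kdr, Camp, Cd3d, Cd3g and Mpeg1. Members and lists were chosen with earlier results of these data known. Of 119 list entries 106 were measured; the rest were not analysed here. Alternatives were other probe set choices, a filter on dim probe sets, renormalization, other variance models, array weights, a replicate block, a minimum fold of 1.5 and each array left out.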

Additional observations from a re-analysis of the deposited data

How the results depend on the processing

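Limma called 0 probe sets under each alternative tried. At an unadjusted p under 0.05 there were 1620 of 45037; the count was 2864 without DeltaKlf6 2, 3548 without DeltaKlf6 3, 2315 with array weights, 89 with a minimum fold of 1.5, 1056 without wildtype 3, 810 of 22519 without dim probe sets and 631 of 17097 at 1 probe set a gene. The number of thioesterase probe sets with separate groups was 4 of 10, beside 9.44% of all probe sets; it was 2 of 8 without shared-type probe sets, which removes Acot3 and 1 of Acot2 (9.47% of all), and 4 to 8 of 10 with each array left out, where the share of all was 17.1% to 24.1%, highest without DeltaKlf6 3. Those lower by group mean were 6 to 8 of 10 with each array left out. Acot1 differed by -2.23 to -1.62, Acot3 by -2.86 to -1.93 and the lower Acot12 probe set by -1.29 to -0.79 over the alternatives. Acot9 kept its sign in 10 of 13 alternatives and the other Acot12 probe set in 9 of 13. Acot7 and Acot13 stayed above 0 and Acot8 and both Acot2 probe sets below 0 in the alternatives run. Whether the replicate numbers pair the samples is not known here. Deviations of same-numbered arrays correlated at 0.00156, 0.199 and 0.0679. DeltaKlf6 2 and DeltaKlf6 3 correlated best with the wildtype array of their own number, and DeltaKlf6 1 with wildtype 3 (0.0635). With the replicate block limma called 0 probe sets, 1749 at an unadjusted p under 0.05. With 3 animals per group, differences near the spread of the DeltaKlf6 libraries cannot be resolved, and values near the array medians may be background.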

Other observations

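Within the lists, 3 genes chosen after their values were seen lay far below the other 5 arrays in 1 library, DeltaKlf6 1, the one with high Klf6. Them4, a mitochondrial thioesterase, was at 4.22, 7.21 and 6.83 in DeltaKlf6, against 7.30, 7.09 and 7.45 in wildtype. Crat was at 4.54, 6.96 and 6.62 in DeltaKlf6, against 7.20, 7.25 and 7.54 in wildtype, so its other DeltaKlf6 libraries were also below wildtype, by less. Acbd4, an acyl-CoA binding protein read by a shared-type probe set, was at 6.58, 8.32 and 8.36 in DeltaKlf6, against 8.20, 8.33 and 8.47 in wildtype.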
